A study of Mus musculus with 15 samples.

Results

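The 39 genes described here encode proteins of the presynaptic vesicle and of its release machinery, picked by symbol for what is known of their function at a time when earlier results of these data were known, although the rule itself uses no measured value. Each of the 39 symbols matched 1 Ensembl gene of GRCm38 among the 55471 rows of the count table, and all 39 were among the 16171 genes that passed the filter on low counts (over 1 CPM, counts scaled to library size, in 3 or more libraries). Bulk polyA RNA sequencing was performed on whole hippocampi of female mice aged 3 months, with 3 libraries for each of 5 groups and 15 in all. Batch 1 held DM mice, which are homozygous for the *App* NL-G-F knock-in and carry 1 human *APOE4* allele (AppNL-G-F/NL-G-F with Apoe4+/wt), APP-TKI mice, which carry the homozygous *App* knock-in alone (AppNL-G-F/NL-G-F), and WT mice. Batch 2 held ApoE4 mice, which carry 1 human *APOE4* allele beside a wild-type allele (ApoE4+/wt), and a WT group of its own. Both alleles are knock-ins of the whole animal with no added promoter, and the WT mice were of the C57BL/6JInv strain. The libraries of a group are from separate mice by the study's description, so the p-values measure the spread between mice, dissection and library preparation included.

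Transmitter release begins with vesicles that are filled with transmitter by a transporter of the vesicle membrane, held in a reserve by synapsins and brought to the active zone by Rab3 and its effectors. Scaffold proteins such as RIM, Bassoon and Piccolo mark the active zone, and Munc13 proteins prime the docked vesicle. Fusion is driven by SNARE proteins of the vesicle and of the plasma membrane, held ready by complexins and triggered when synaptotagmin binds calcium, after which NSF and SNAP proteins take the SNARE complex apart and dynamin and amphiphysin recover the membrane. In the hippocampus most of these genes are transcribed in pyramidal and granule neurons and in interneurons, while the RNA of axons that enter from other regions is left in those regions. Changes of presynaptic genes and loss of synapses are known from brains with Alzheimer's disease and from models with amyloid.

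Total counts were 32754717 to 44630808 per library, and the 39 genes took 1.85 to 2.04% of them, with 332 to 81638 counts for a gene in a library. Markers of the labelled tissue were present in all libraries, with summed levels of 606 to 782 CPM for 12 dentate granule, 930.1 to 1282 CPM for 11 CA3 and 718 to 1153 CPM for 11 CA1 genes. Some libraries of batch 2 stood apart. ApoE4 replicate 3 had a summed level of 1556 CPM over 16 markers of striatum, against 255.6 to 334 CPM in the other 5 libraries of batch 2, and all 16 markers were higher in it than in each of these. WT replicate 3 of batch 2 had a summed level of 1022 CPM over 17 markers of thalamus and habenula, against 343 to 458 CPM in the other 5, with all 17 markers higher. Markers of ependyma and choroid plexus summed to 3137 CPM in ApoE4 replicate 1 and 2688 CPM in WT replicate 3 of batch 2, and to 287 to 375 CPM in the other 4. These sums do not hold for every marker. Of the 14 markers, 6 were highest in ApoE4 replicate 1 and 3 in WT replicate 3. Another 5 were highest in ApoE4 replicate 3, whose sum was 375 CPM. In batch 1 the striatal sum was 246 to 268 CPM and the thalamic sum 321 to 366 CPM. Long noncoding RNA took 2.65 to 2.88% of the counts in DM replicate 1, APP-TKI replicates 1 and 2 and WT replicate 1, and 2.16 to 2.32% in the other 5 libraries of batch 1.

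Presynaptic genes were among the most abundant transcripts of the hippocampus. Levels were compared between genes as TPM, in which counts are divided by exon length and scaled to library size. The median of the 39 genes was 224 TPM, against 17.4 TPM over all tested genes, 28 of 39 lay in the top 10%, and together they made up 13396 TPM. The highest was *Cplx2*, a complexin that binds the assembled SNARE complex. It had 1011, 1062 and 1104 TPM in DM, 1094, 1179 and 1081 TPM in APP-TKI and 1079, 1062 and 1094 TPM in WT libraries of batch 1, and 1319, 1375 and 1391 TPM in ApoE4 and 1451, 1327 and 1172 TPM in WT libraries of batch 2. *Snap25*, a SNARE of the plasma membrane, had 921, 1079 and 1024 TPM in DM, 1021, 989.7 and 1054 TPM in APP-TKI and 1005, 1044 and 1011 TPM in WT libraries of batch 1, and 1023, 1047 and 976 TPM in ApoE4 and 1083, 1076 and 985 TPM in WT libraries of batch 2. For *Syp*, synaptophysin of the vesicle membrane, the levels were 877, 997 and 948 TPM in DM, 928, 876 and 1009 TPM in APP-TKI and 908, 949 and 949 TPM in WT libraries of batch 1, and 948, 996 and 887 TPM in ApoE4 and 1018, 983 and 962 TPM in WT libraries of batch 2. *Cplx2* was above *Snap25* in 14 of 15 libraries, and *Snap25* was above *Syp* in 15 of 15. The groups of each batch overlapped in all 3 genes.

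At the other end were isoforms of genes whose relatives were abundant. *Sv2c*, the least abundant SV2 glycoprotein of the vesicle, had 8.84, 10.6 and 9.60 TPM in DM, 11.8, 13.3 and 10.7 TPM in APP-TKI and 12.02, 10.9 and 9.02 TPM in WT libraries of batch 1, and 20.3, 16.2 and 36.02 TPM in ApoE4 and 11.98, 19.02 and 16.02 TPM in WT libraries of batch 2. The value in ApoE4 replicate 3 was the highest of all 15. *Unc13b*, the less used Munc13 isoform of hippocampal synapses, had 14.7, 12.1 and 11.4 TPM in DM, 15.3, 14.7 and 12.6 TPM in APP-TKI and 15.9, 11.2 and 10.96 TPM in WT libraries of batch 1, and 10.5, 12.1 and 9.97 TPM in ApoE4 and 13.3, 11.7 and 11.2 TPM in WT libraries of batch 2. *Syn3*, a synapsin known from developing neurons, was the lowest of the 39, with 3.22, 3.05 and 3.60 TPM in DM, 3.10, 3.34 and 2.82 TPM in APP-TKI and 3.09, 3.47 and 3.40 TPM in WT libraries of batch 1, and 3.17, 3.31 and 4.38 TPM in ApoE4 and 2.78, 3.53 and 3.65 TPM in WT libraries of batch 2. *Sv2c* was above *Unc13b* in only 5 of 15 libraries, so that their order is not firm, while *Unc13b* was above *Syn3* in 15 of 15.

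Within each role 1 or a few isoforms carried most of the level (means over 15 libraries). Of the synapsins, *Syn1* had 422 TPM and *Syn2* 324 TPM. Of the tetraspan vesicle proteins beside *Syp*, *Syngr1* had 319.6 TPM, *Syngr3* 219 TPM and *Synpr*, synaptoporin, known from granule cells and their mossy fibres, 54.5 TPM. *Vamp2*, the main vesicle SNARE of the forebrain, stood at 712 TPM, its relative *Vamp1* at 49.7 TPM, and *Stx1a*, the syntaxin of the plasma membrane, at 123 TPM. *Syt1*, the calcium sensor of fast release in the forebrain, had 655 TPM, and *Syt2*, the sensor of the same kind used by fast inhibitory and hindbrain synapses, 19.2 TPM. *Syt11*, which does not sense calcium, had 670.4 TPM, above *Syt1* in 8 of the 15 libraries, which do not separate the pair. *Syt7*, a slow sensor with high affinity for calcium, *Syt5* and *Syt4* followed at 196, 193 and 184 TPM, and *Sv2a* and *Sv2b* at 332 and 231 TPM. *Rab3a*, the main Rab3 GTPase of synaptic vesicles, had 741 TPM, *Rab3c* 179 TPM and *Rph3a*, rabphilin, which binds Rab3, 243 TPM. The large scaffolds of the active zone were lower per length, with *Rims1* at 110.4 TPM, *Bsn* (Bassoon) at 102 TPM, *Erc2* at 85.0 TPM, *Pclo* (Piccolo) at 54.3 TPM and *Rims2* at 30.8 TPM, and the main priming factor *Unc13a* had 112 TPM. *Cplx1* reached 842 TPM and *Doc2a*, a calcium-binding protein of spontaneous and asynchronous release, 20.1 TPM. The SNARE disassembly genes *Nsf* and *Napb* stood at 499 and 303 TPM. *Slc17a7*, which encodes the vesicular glutamate transporter VGLUT1, had 764 TPM, the endocytic genes *Dnm1* (dynamin 1) and *Amph* (amphiphysin) 702 and 224 TPM, and *Sncb*, beta-synuclein, 491 TPM.

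**Figure D1:**
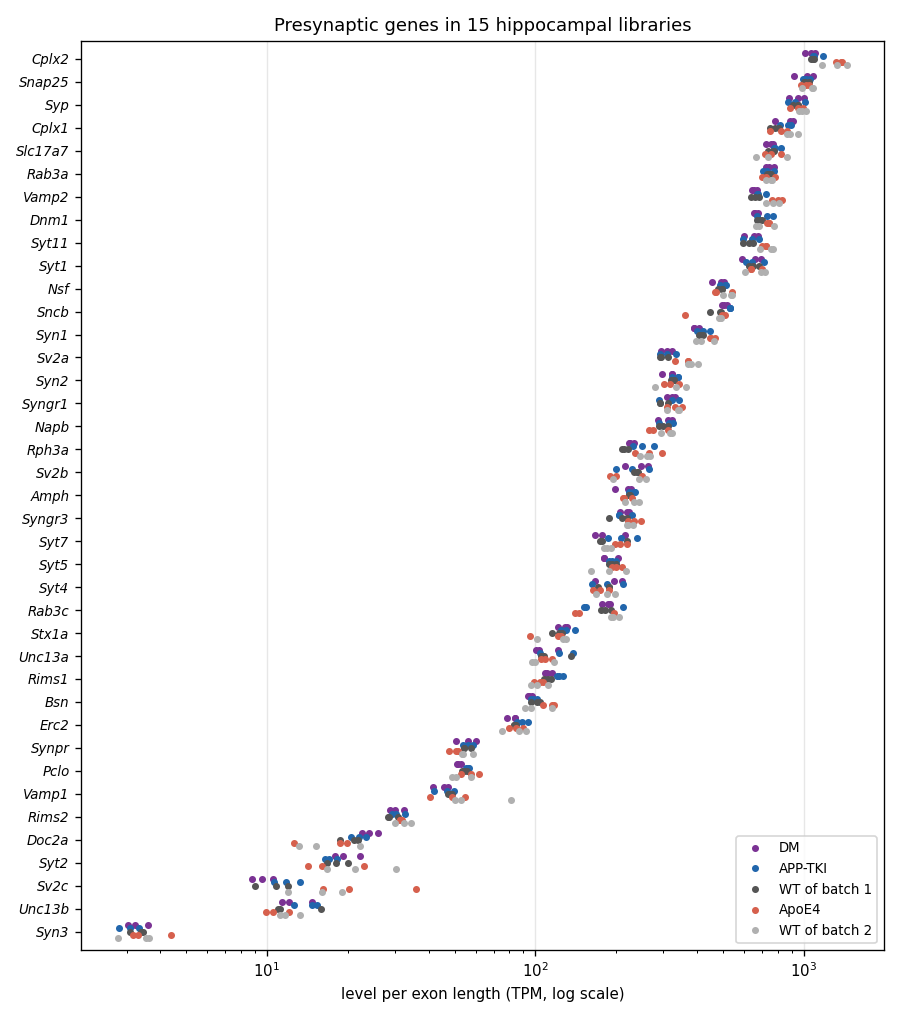
Level of each of the 39 genes (rows, highest mean at the top) in TPM on a log scale, with 1 point for each of the 15 libraries, coloured by group. The genes run from 1187 TPM for *Cplx2* to 3.33 TPM for *Syn3* in mean level, and the points of the groups lie on each other for most genes, with *Sv2c*, *Syt2*, *Vamp1* and *Doc2a* the most spread.

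The stretches upstream of a start site in RefSeq (GRCm38.p6) were read to show where the genes that the results turn on are transcribed from. Windows of 250 bases before to 50 bases after the start were at hand for 30 of the 39 genes (40 windows). They were rich in CG, with a median of 17.5 CG dinucleotides and a range of 0 to 38, against a median of 7 over all 32851 windows. The letters TTCAGCACC, the left part of the RE1 element that the neuronal repressor REST binds, searched on both strands like the other motifs, stood in the windows of *Syn1* and *Unc13a* and in 0.371% of all windows, and the right part GGACAGC stood in those of *Rph3a* and *Unc13a* and in 6.56% of all. The cyclic AMP response element TGACGTCA stood in that of *Syn1* (1.79% of all), the CCAAT box CCAAT in 12 of the 40 windows, of 11 genes (37.4% of all) and TATAAA in that of *Sv2b* (13.6% of all). None of the motifs contains the letters of another, and a match is a description of the letters alone. *Syn1* is printed because it holds both the RE1 letters, beginning 232 bases before the start, and the cyclic AMP element, beginning 159 bases before it, both in capitals (chrX:20920919-20921168, minus strand, the 250 bases before the start):
Syn1: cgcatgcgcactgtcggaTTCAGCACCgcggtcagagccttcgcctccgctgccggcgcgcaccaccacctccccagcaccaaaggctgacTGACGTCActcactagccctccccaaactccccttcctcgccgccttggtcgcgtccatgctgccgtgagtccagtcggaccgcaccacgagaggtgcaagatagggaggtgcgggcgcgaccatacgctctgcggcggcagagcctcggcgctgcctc
*Vamp1*, *Syt2* and *Sv2c* are printed because their fold changes between ApoE4 and WT mice of batch 2 were the largest of the 39 genes, in either direction. Each sequence is the 150 bases before the start, with a CCAAT box read from the other strand (ATTGG) in capitals where there is one, 77 bases before the start in *Vamp1* (chr6:125215431-125215580, plus strand) and 59 bases before 1 of the starts of *Syt2* (chr1:134709150-134709299, plus strand), and without any of the motifs in *Sv2c* (chr13:96132578-96132727, minus strand):
Vamp1: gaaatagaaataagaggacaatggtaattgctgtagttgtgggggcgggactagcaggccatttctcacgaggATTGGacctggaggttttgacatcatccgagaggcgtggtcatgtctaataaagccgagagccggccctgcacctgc
Syt2: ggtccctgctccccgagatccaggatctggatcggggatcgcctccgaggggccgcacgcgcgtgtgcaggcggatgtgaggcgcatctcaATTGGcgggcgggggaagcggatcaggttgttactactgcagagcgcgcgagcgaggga
Sv2c: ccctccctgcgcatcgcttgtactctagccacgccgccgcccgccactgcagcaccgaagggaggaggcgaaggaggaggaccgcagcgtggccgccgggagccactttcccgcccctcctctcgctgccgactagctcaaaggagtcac

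The 39 genes varied little between libraries of a group. The median SD within groups was 0.09 on the log2 scale, against 0.13 over all tested genes, and 26 of 39 genes were below the median of all. The range ran from 0.06 to 0.33, and the genes with the largest spread were *Sv2c* (0.33), *Syt2* (0.28), *Doc2a* (0.25) and *Vamp1* (0.22). The 39 genes had a higher median level than all tested genes (224 against 17.4 TPM), and spreads were not compared at matched level. In batch 2, ApoE4 replicate 3 was below each of the other 5 libraries in 19 of 39 genes and above them in 5, and 8 genes differed from the mean of the other 5 by more than 0.3 on the log2 scale. WT replicate 3 of batch 2 was below the other 5 in 13 genes and above them in 5. The remaining 4 libraries of batch 2 were lowest in 1 to 3 genes each and highest in 3 to 13. The shares of all tested genes lowest or highest in each library are not given here, so these counts do not set the 39 genes apart.

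**Figure D2:**
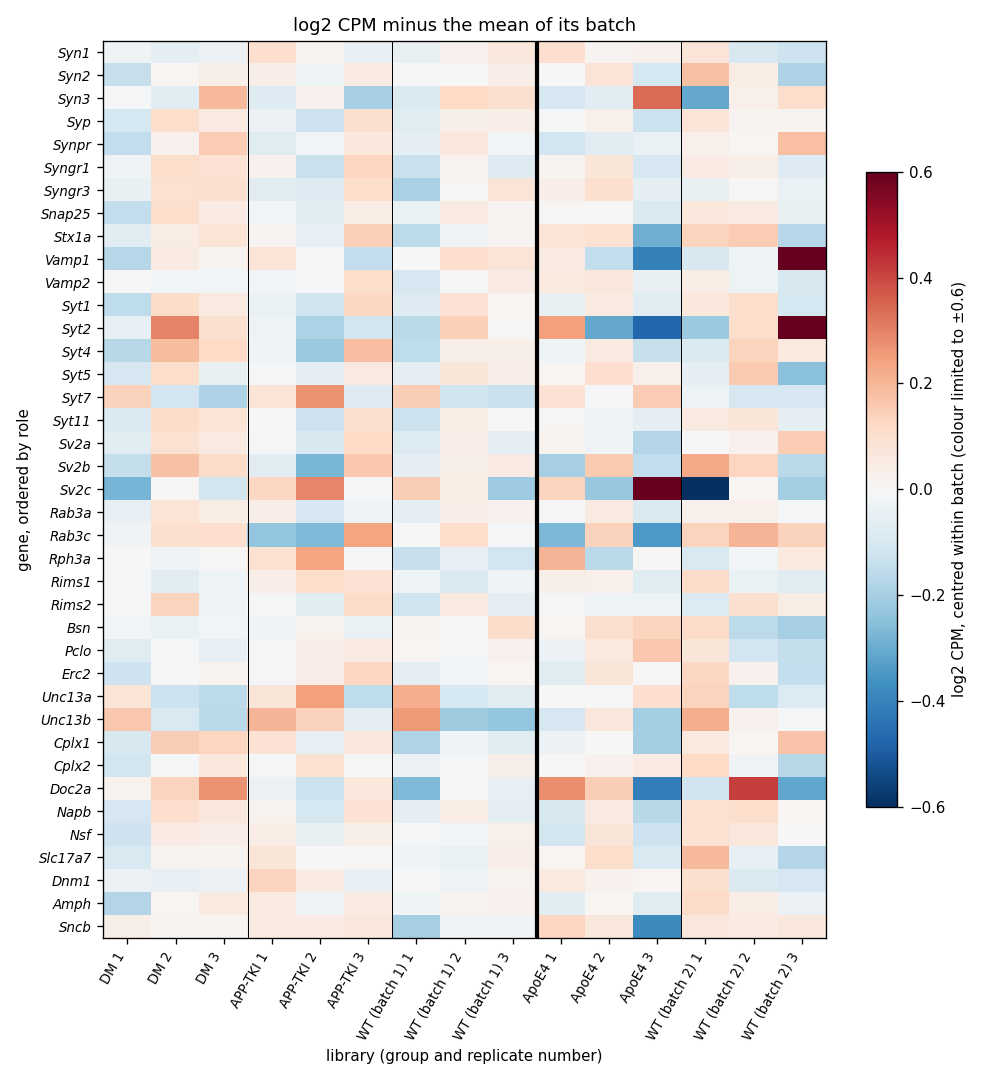
Log2 CPM of the 39 genes (rows, ordered by role) minus the mean of the gene in its batch, in the 15 libraries (columns, with the thick line between batch 1 on the left and batch 2 on the right). Most cells lie near 0, and the strongest colours are those of *Sv2c* in ApoE4 replicate 3 and of *Vamp1* and *Syt2* in WT replicate 3 of batch 2.

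The comparison of DM with WT mice asks whether mutant *App* together with *APOE4* changes presynaptic transcripts. No gene of the 39 was called in DM mice at an adjusted p under 0.1 by edgeR's quasi-likelihood test with Benjamini-Hochberg adjustment over all tested genes, and the lowest adjusted p was 0.984. Of all tested genes 0.0124% were called. At an unadjusted p under 0.05 there was 1 of 39 genes (2.56%), beside 4.55% of all genes. DM and WT libraries of the same replicate number deviated together (correlations of 0.45, 0.19 and 0.30), and this fit does not pair them. Fits with the replicate number as a block are given with *Cplx1* below. DESeq2 called 0 of the 39 in each of the 5 comparisons described here, and the robust likelihood ratio test of edgeR called 0 in each of the 3 of batch 1. The shares of all genes called in these fits are not given here, so the 0 is no result about the 39 genes. The groups did not overlap in 6 of 39 genes (15.4%), beside 10.4% of all genes, 3 of them higher in DM mice (*Rph3a*, *Doc2a* and *Sncb*) and 3 lower (*Bsn*, *Pclo* and *Dnm1*). The median log2 fold change was 0.014, against 0.012 over all genes, with 22 genes above 0 and 17 below, and it was -0.002 after TMM and -0.007 after median-of-ratios scaling. Fold changes ran from -0.12 to 0.25, and the 95% intervals of all 39 genes lay within a 1.5-fold change and those of 37 within a 1.3-fold change. In bulk tissue fewer neurons and less RNA per neuron cannot be told apart.

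*Doc2a* (chr7:126847416-126852705, plus strand) was the gene with the smallest p. It had 17.3, 18.7 and 20.6 CPM in DM libraries, against 14.2, 17.02 and 16.5 CPM in WT libraries, and the groups did not overlap. The log2 fold change of *Doc2a* was 0.25 ± 0.10 (SE), with an unadjusted p of 0.0269 and an adjusted p of 0.984 by edgeR's quasi-likelihood test. *Cplx1* had 469, 554 and 548 CPM in DM libraries and 441, 491 and 477 CPM in WT libraries. The groups overlapped, replicate 1 was the lowest of each, and each DM library was above the WT library of the same number. With the replicate number as a block and only the DM and WT libraries in the fit, an alternative chosen after seeing the data, *Cplx1* was the 1 member called, at a log2 fold change of 0.15 and an adjusted p of 0.0670 by edgeR's quasi-likelihood test, while 422 of all tested genes were called. With the same block and all 9 libraries of batch 1 in the fit, 0 members and 11 of all genes were called. There *Doc2a* and *Cplx1* had unadjusted p-values of 0.0139 and 0.0454 by edgeR's quasi-likelihood test. In the blocked fit of the DM and WT libraries alone, more members than *Cplx1* had an unadjusted p under 0.05 by the same test. These were *Doc2a*, *Syngr1*, *Rph3a*, *Syt2* and *Sncb*, higher in DM mice, and *Vamp1* and *Unc13a*, lower. Their p-values were 0.00421 to 0.0392, and the share of all genes under 0.05 in these fits is not given here.

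*Sncb*, which encodes a synuclein of the nerve terminal, had 304, 301 and 300.3 CPM in DM libraries, against 258, 293 and 293 CPM in WT libraries, and its log2 fold change was 0.10 ± 0.06 (SE). *Rph3a* had 294, 289 and 296 CPM in DM libraries, against 267, 284 and 271 CPM in WT libraries, a log2 fold change of 0.10 ± 0.07 (SE). The lowest WT value of both genes was that of replicate 1. Among the 3 that were lower without overlap, *Bsn* had 424, 417 and 424 CPM in DM libraries, against 435, 427 and 464 CPM in WT libraries. *Pclo* had 317, 331 and 323 CPM in DM libraries, against 337, 332 and 339 CPM in WT libraries. For *Dnm1* the values were 970.1, 961 and 969 CPM in DM libraries, against 992, 973 and 1008 CPM in WT libraries. These gaps between the groups were narrow, and the log2 fold changes were -0.07 ± 0.05 (SE), -0.05 ± 0.05 (SE) and -0.04 ± 0.06 (SE).

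Further genes central to release are given as examples chosen after their values were seen, beside *Doc2a* and *Cplx1* above. *Snap25* had 1711, 2041 and 1963 CPM in DM libraries, against 1843, 1972 and 1918 CPM in WT libraries, and the 95% interval of its log2 fold change was -0.18 to 0.17. *Vamp2* had 698, 691 and 689.8 CPM in DM libraries and 651, 697 and 722 CPM in WT libraries, an interval of -0.14 to 0.15. *Stx1a*, their partner in the SNARE complex, had 88.4, 95.8 and 98.3 CPM in DM libraries, against 83.2, 90.7 and 93.8 CPM in WT libraries, an interval of -0.10 to 0.25. In all 3 the groups overlapped, while each DM library was above the WT library of the same number in *Stx1a*, whose log2 fold change was 0.08 with an adjusted p of 0.379 by edgeR's quasi-likelihood test in the fit of the DM and WT libraries alone with the replicate number as a block. The calcium sensor *Syt1* had 1338, 1606 and 1542 CPM in DM libraries and 1407, 1578 and 1499.6 CPM in WT libraries, with an interval of -0.21 to 0.21. *Slc17a7*, which fills glutamatergic vesicles, had 1067, 1153 and 1151 CPM in DM libraries, against 1121, 1106 and 1168 CPM in WT libraries, and an interval of -0.15 to 0.13. In ApoE4 minus WT the intervals were -0.20 to 0.10 for *Snap25*, -0.11 to 0.21 for *Vamp2*, -0.42 to 0.27 for *Stx1a*, -0.24 to 0.15 for *Syt1* and -0.26 to 0.29 for *Slc17a7*.

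Genes with shorter exons tended to be higher in DM relative to WT mice than genes with longer exons. Across the 39 genes, which are not independent replicates, the Pearson correlation of the log2 fold change with log2 exon length was -0.48, against -0.06 across all genes. It was -0.21 in APP-TKI minus WT (0.07 across all genes) and -0.21 in DM minus APP-TKI (-0.14 across all genes). In ApoE4 minus WT it was 0.02 (0.06 across all genes). Of the 20 genes with at most 6791 bases of exon 13 were above 0, and of the 19 longer ones 9. In batch 1 the mean of the shorter genes was lowest in WT replicate 1 (-0.10 on the log2 scale, centred within the batch) and DM replicate 1 (-0.07), the libraries of their groups with the highest share of long noncoding RNA (2.88% and 2.86%). Among APP-TKI libraries it was lowest in replicate 2 (-0.04), at 2.65%. It did not follow that share in every library. APP-TKI replicate 1, with 2.66%, had a mean of 0.02, and in batch 2 the lowest mean of all 15 libraries was that of ApoE4 replicate 3 (-0.11), at 1.83%. Without WT replicate 1 of batch 1 the correlation was -0.12 in DM minus WT and 0.11 in APP-TKI minus WT. The part of RNA quality in these values was not tested.

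The comparison of APP-TKI with WT mice shows the *App* knock-in alone, with the WT libraries shared with DM minus WT. No gene of the 39 was called, the lowest adjusted p being 1.00 by edgeR's quasi-likelihood test, and 0.00618% of all genes were called. At an unadjusted p under 0.05 there were 3 of 39 (7.69%), all higher in APP-TKI mice, beside 3.56% of all genes. The same 3 genes, *Rph3a*, *Rims1* and *Sncb*, were those in which the groups did not overlap (7.69%, beside 8.26% of all genes). The median log2 fold change was 0.022, against 0.013 over all genes, with 27 genes above 0 and 12 below, and the range was -0.13 to 0.21. All 39 intervals lay within a 1.5-fold change and 35 within a 1.3-fold change.

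*Rph3a* (chr5:120940499-121010092, minus strand) had 313, 347 and 292 CPM in APP-TKI libraries, against 267, 284 and 271 CPM in WT libraries, with replicate 2 the highest of the APP-TKI libraries. Its log2 fold change was 0.21 ± 0.07 (SE), at an unadjusted p of 0.00747 by edgeR's quasi-likelihood test. *Rims1*, the active zone scaffold that binds Rab3 and Munc13 (chr1:22286251-22805994, minus strand), had 239.6, 251 and 248 CPM in APP-TKI libraries, against 228, 219.7 and 230.0 CPM in WT libraries, a narrow and complete separation. The log2 fold change of *Rims1* was 0.12 ± 0.05 (SE), with an unadjusted p of 0.0320 by edgeR's quasi-likelihood test. *Sncb* had 309, 307 and 312 CPM in APP-TKI libraries, against 258, 293 and 293 CPM in WT libraries, with WT replicate 1 well below the other 2 of its group. For *Sncb* the log2 fold change was 0.14 ± 0.06 (SE) and the unadjusted p 0.0413 by the same test, and without WT replicate 1 they were 0.08 and 0.184.

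The comparison of DM with APP-TKI mice shows the *APOE4* allele on the background of mutant *App*. No gene of the 39 was called, and the lowest adjusted p was 0.987 by edgeR's quasi-likelihood test. Of all genes 0% were called. At an unadjusted p under 0.05 there were 2 of 39 (5.13%), beside 3.78% of all genes, and the groups did not overlap in 3 (7.69%), beside 7.92% of all genes, all lower in DM mice (*Rims1*, *Pclo* and *Sncb*). The median log2 fold change was -0.008, with 18 genes above 0 and 21 below, against 0.001 over all genes. All 39 intervals lay within a 1.5-fold change and 31 within a 1.3-fold change. *Sv2c* had 23.4, 28.6 and 26.3 CPM in DM libraries, against 30.99, 34.8 and 28.3 CPM in APP-TKI libraries. The groups overlapped, and the log2 fold change was -0.26 ± 0.11 (SE), with an unadjusted p of 0.0352 by edgeR's quasi-likelihood test. *Syt2* had 37.3, 47.4 and 41.2 CPM in DM libraries, against 37.7, 33.8 and 35.7 CPM in APP-TKI libraries. Only DM replicate 1 fell among the APP-TKI values, and the log2 fold change of *Syt2* was 0.23 ± 0.10 (SE), with an unadjusted p of 0.0366 by the same test. Without DM replicate 2 the log2 fold change of *Syt2* was 0.14, with an unadjusted p of 0.196 by edgeR's quasi-likelihood test. *Rims1* had 232, 223 and 229 CPM in DM libraries, against 239.6, 251 and 248 CPM in APP-TKI libraries. The log2 fold change of *Rims1* was -0.11 ± 0.05 (SE).

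**Figure D3:**
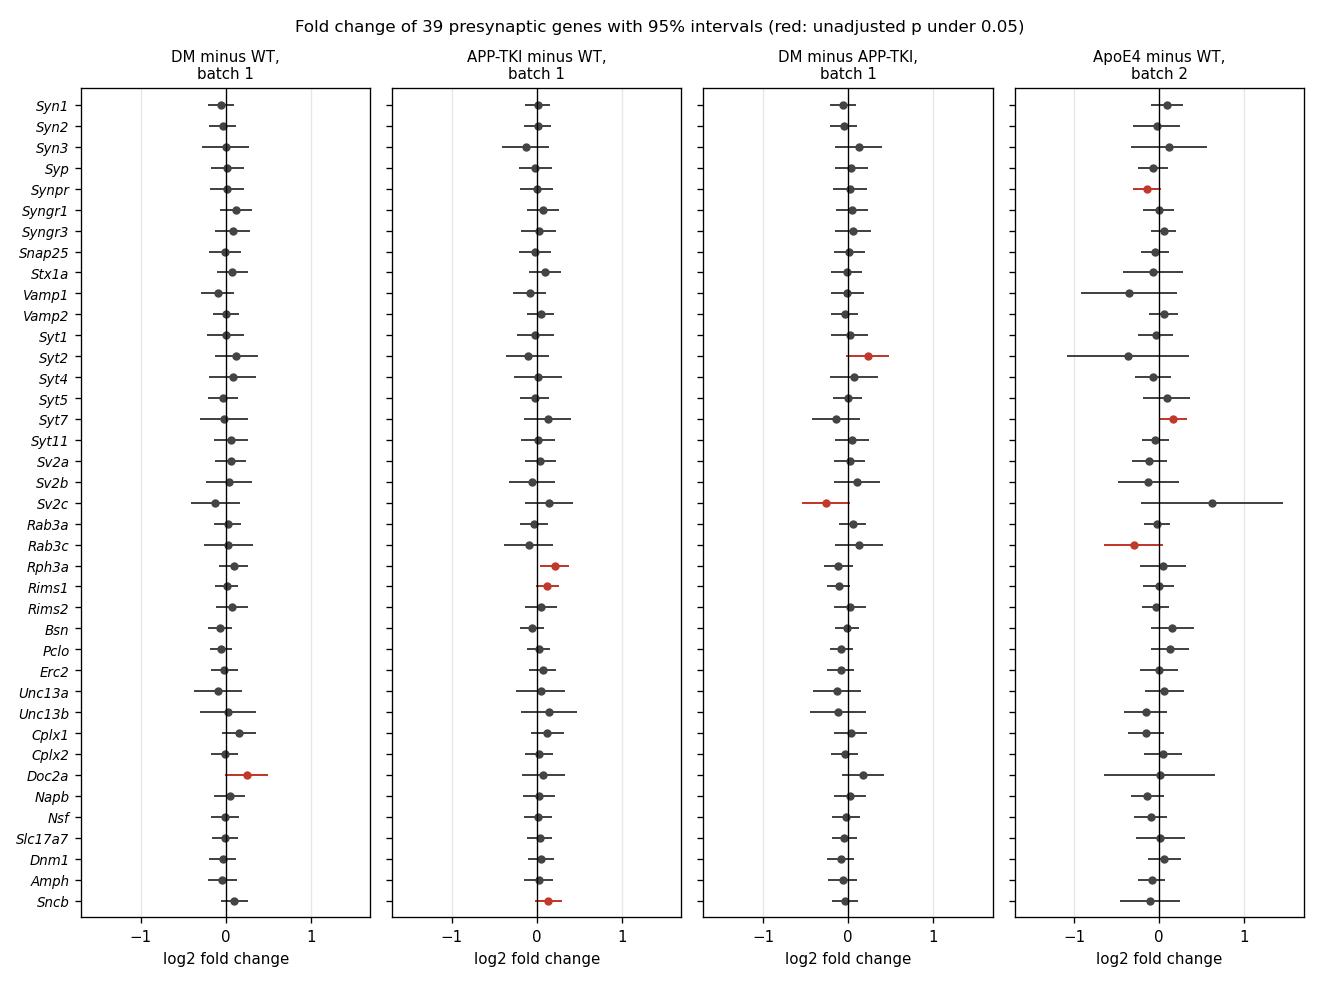
Log2 fold change of each of the 39 genes (rows, ordered by role) in 4 comparisons, as a point with its 95% interval from the residual degrees of freedom of the fit, in red where the unadjusted p was under 0.05. The intervals lie within a 1.5-fold change for all 39 genes in the 3 comparisons of batch 1 and for 34 in ApoE4 minus WT, where those of *Vamp1*, *Syt2*, *Sv2c*, *Rab3c* and *Doc2a* are wider.

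The comparison of ApoE4 with WT mice shows the *APOE4* allele without mutant *App*. No gene of the 39 was called, the lowest adjusted p being 0.761 by edgeR's quasi-likelihood test, and 0% of all genes were called. At an unadjusted p under 0.05 there were 3 of 39 (7.69%), beside 5.99% of all genes. The groups did not overlap in 3 (7.69%), beside 12.2% of all genes, with *Syt7* higher and *Synpr* and *Cplx1* lower in ApoE4 mice. The median log2 fold change was -0.028, with 15 genes above 0 and 24 below, against -0.011 over all genes. Without ApoE4 replicate 3 the median was 0.007, with 20 genes above 0. Fold changes ran from -0.37 to 0.62, and 34 of 39 intervals lay within a 1.5-fold change and 28 within a 1.3-fold change.

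*Syt7* (chr19:10389090-10453180, plus strand) had 405, 379 and 424 CPM in ApoE4 libraries, against 372, 355 and 355 CPM in WT libraries, with no overlap. Its log2 fold change was 0.16 ± 0.06 (SE), at an unadjusted p of 0.0234 by edgeR's quasi-likelihood test. *Synpr* (chr14:13284780-13616340, plus strand) had 118, 123 and 125 CPM in ApoE4 libraries, against 131, 129 and 146 CPM in WT libraries, of which replicate 3 was the highest. The log2 fold change of *Synpr* was -0.15 ± 0.06 (SE), with an unadjusted p of 0.0303 by edgeR's quasi-likelihood test, and -0.09 without WT replicate 3. *Rab3c*, a Rab3 GTPase of the vesicle (chr13:110054187-110280996, minus strand), had 458, 607 and 434 CPM in ApoE4 libraries, against 605, 634 and 606 CPM in WT libraries. ApoE4 replicates 1 and 3 were low and replicate 2 lay among the WT values, and the log2 fold change of *Rab3c* was -0.30 ± 0.12 (SE), with an unadjusted p of 0.0392 by the same test, and -0.46 without ApoE4 replicate 2. The robust likelihood ratio test of edgeR, the kind of test the authors used, called *Rab3c* (log2 fold change -0.39, adjusted p = 0.00584) among 125 of all genes, whereas DESeq2 called no member. Over all settings the adjusted p of *Rab3c* was 0.00584 to 0.997.

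The largest fold changes of this comparison were those of *Sv2c*, *Syt2* and *Vamp1*, chosen for description after their values were seen, and each rested on a library that stood apart. *Sv2c*, known for its high level in the basal ganglia, had 51.6, 40.2 and 89.99 CPM in ApoE4 libraries, against 30.1, 47.5 and 40.9 CPM in WT libraries. The value of ApoE4 replicate 3, the library with the striatal markers, was the highest, ApoE4 replicate 1 was just above the WT values and replicate 2 lay among them. The log2 fold change of *Sv2c* was 0.62 ± 0.30 (SE), and 0.22 without ApoE4 replicate 3. *Syt2* had 46.00, 31.3 and 27.97 CPM in ApoE4 libraries, against 33.2, 41.6 and 60.95 CPM in WT libraries. *Vamp1*, the vesicle SNARE known from brainstem and spinal cord, had 146, 127 and 106 CPM in ApoE4 libraries, against 132, 138 and 217 CPM in WT libraries. Both were highest in WT replicate 3, the library with the thalamic markers, and lowest in ApoE4 replicate 3. Their log2 fold changes were -0.37 ± 0.25 (SE) for *Syt2* and -0.36 ± 0.20 (SE) for *Vamp1*, and both were -0.09 without WT replicate 3. With both replicate 3 libraries left out, they were 0.05 and 0.02, and *Sv2c* was 0.24. The part of tissue from neighbouring regions in these values was not tested.

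**Figure D4:**
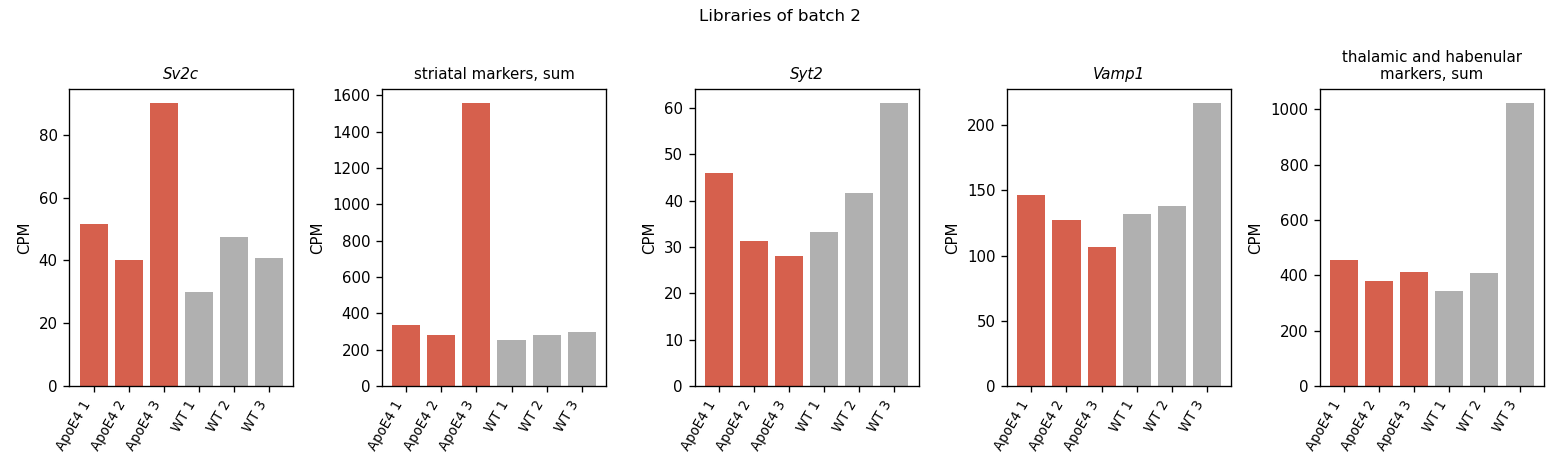
CPM of *Sv2c*, *Syt2* and *Vamp1* and the summed CPM of 16 striatal and 17 thalamic and habenular markers in the 6 libraries of batch 2, as bars from 0, ApoE4 in red and WT in grey. *Sv2c* and the striatal sum (1556 CPM) are highest in ApoE4 replicate 3, and *Syt2*, *Vamp1* and the thalamic sum (1022 CPM) are highest in WT replicate 3.

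Whether the *APOE4* allele acts differently with and without mutant *App* was tested as the difference of 2 differences, DM minus APP-TKI less ApoE4 minus WT, in a fit of all 15 libraries in which a shift common to a batch cancels. No gene of the 39 was called, the lowest adjusted p being 0.700 by edgeR's quasi-likelihood test, and 0% of all genes were called. At an unadjusted p under 0.05 there were 5 of 39 (12.8%), beside 6.85% of all genes, with *Syt2* and *Rab3c* above 0 and *Sv2c*, *Syt7* and *Pclo* below. The median was 0.055, with 24 genes above 0, against 0.012 over all genes, and 32 intervals lay within a 1.5-fold and 22 within a 1.3-fold difference. Without ApoE4 replicate 3 the median was -0.014 and 0 of 39 genes had an unadjusted p under 0.05, and without WT replicate 3 of batch 2 there were 2. The shares of all genes in these fits are not given here, so the lower counts cannot be read as particular to the 39 genes.

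*Sv2c* had the largest difference, -0.88 ± 0.32 (SE) on the log2 scale with an unadjusted p of 0.0159 by edgeR's quasi-likelihood test, made of -0.26 in DM minus APP-TKI and 0.62 in ApoE4 minus WT. It was -0.48 without ApoE4 replicate 3. The difference of *Syt2* was 0.60 ± 0.28 (SE), with an unadjusted p of 0.0470 by edgeR's quasi-likelihood test, and 0.32 without WT replicate 3 of batch 2. *Rab3c* differed by 0.43 ± 0.18 (SE), with an unadjusted p of 0.0299 by the same test. In APP-TKI libraries *Rab3c* had 505, 494 and 699.7 CPM, and in DM libraries it had 585, 634 and 636 CPM, within the APP-TKI range, replicates 1 and 2 of APP-TKI being low as were replicates 1 and 3 of ApoE4. The robust likelihood ratio test of edgeR called *Rab3c* alone of the 39, at a difference of 0.62 and an adjusted p of 0.00684. Without the filter on low counts the quasi-likelihood test called *Sv2c*, *Syt2* and *Rab3c*, with 393 of all genes with any count, a larger set. The difference of *Sv2c* was then -0.89, close to that with the filter. Its unadjusted p by that test was 9.19e-13, against 0.0159 with the filter, so these calls rest on the set of genes fitted. *Syt7* had a difference of -0.30 ± 0.14 (SE) and *Pclo* one of -0.20 ± 0.09 (SE), with unadjusted p-values of 0.0475 and 0.0341 by edgeR's quasi-likelihood test. *Pclo*, the largest scaffold here, had 317, 331 and 323 CPM in DM and 335, 343 and 346 CPM in APP-TKI libraries, without overlap, and 311, 331 and 356 CPM in ApoE4 and 334, 294 and 288 CPM in WT libraries of batch 2, which overlapped.

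**Figure D5:**
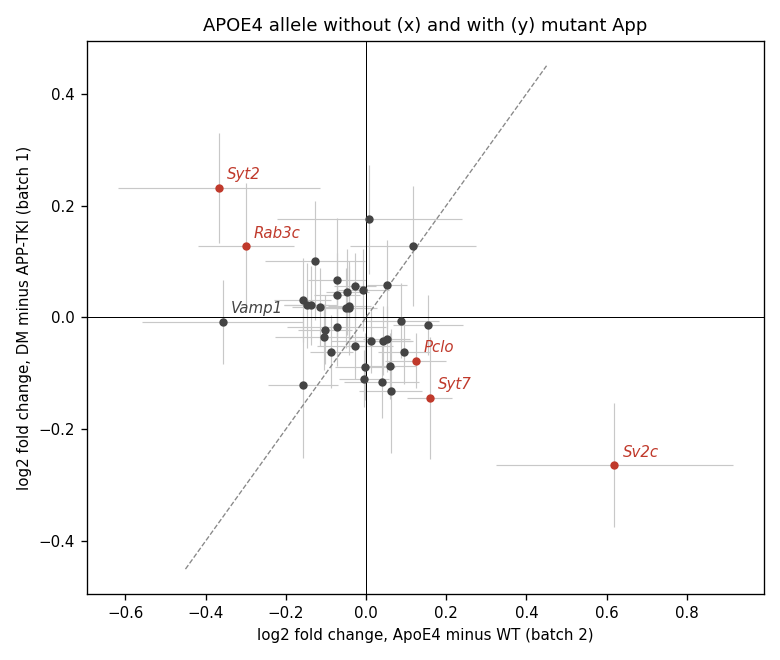
Log2 fold change of the 39 genes in ApoE4 minus WT (x axis, batch 2) and in DM minus APP-TKI (y axis, batch 1), with SE bars in grey and the line of equal change dashed, in red where the difference of both had an unadjusted p under 0.05. Most genes lie near 0 on both axes, and *Sv2c* (0.62 and -0.26) and *Syt2* (-0.37 and 0.23) lie farthest out.

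None of 94 further presynaptic genes, which include other synaptotagmins, complexins, transporters, endocytic and active zone genes, was called in any of the 5 comparisons by edgeR's quasi-likelihood test. At an unadjusted p under 0.05, 2 were above and 1 below 0 in DM minus WT, 3 and 1 in APP-TKI minus WT, 0 and 0 in DM minus APP-TKI, 6 and 1 in ApoE4 minus WT, and 2 and 6 in the difference of differences. Of all tested genes 4.55%, 3.56%, 3.78%, 5.99% and 6.85% were under that p in these comparisons, in the same order. *Syt10*, a synaptotagmin, had 8.45, 7.47 and 7.66 CPM in DM libraries, 6.05, 6.08 and 9.09 CPM in APP-TKI libraries and 5.23, 5.51 and 4.78 CPM in WT libraries of batch 1. The DM and the WT values did not overlap, and neither did the APP-TKI and the WT values. The log2 fold change of *Syt10* was 0.60 ± 0.16 (SE) in DM minus WT and 0.45 ± 0.16 (SE) in APP-TKI minus WT, which share the WT libraries. *Slc32a1*, the vesicular transporter of GABA, had 105, 84.4 and 127 CPM in ApoE4 libraries, against 66.1, 89.9 and 77.00 CPM in WT libraries. The groups overlapped, the highest value was in ApoE4 replicate 3, and the log2 fold change was 0.44 ± 0.16 (SE). *Slc18a2*, the vesicular transporter of monoamines, was also highest in ApoE4 replicate 3, with 5.35, 3.77 and 7.23 CPM in ApoE4 libraries and 2.90, 4.29 and 3.48 CPM in WT libraries.

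None of 16 genes of the vacuolar ATPase, the proton pump that energises vesicle loading, was called in any comparison, and neither was any of 31 genes of the postsynaptic density. In ApoE4 minus WT, 15 of 16 pump genes were below 0 (median log2 fold change -0.08), 2 of them at an unadjusted p under 0.05. Their summed level was 4387, 4564 and 4200.3 CPM in ApoE4 libraries, against 4627, 4716 and 4505 CPM in WT libraries. ApoE4 replicate 3 was the lowest, and without it 13 of 16 were below 0 (median -0.06, against -0.08 with it), none at an unadjusted p under 0.05 by edgeR's quasi-likelihood test. The postsynaptic genes were below 0 in 29 of 31 in DM minus WT (median -0.05). Of the 31, 0 had an unadjusted p under 0.05 by edgeR's quasi-likelihood test. Their summed level was 14591, 14460 and 15157 CPM in DM libraries, against 15376, 14904 and 16329 CPM in WT libraries. The groups overlapped, while each DM library was below the WT library of the same number. With single libraries left out, these genes had a median of -0.04 (without WT replicate 3) to -0.09 (without WT replicate 2). In ApoE4 minus WT they were above 0 in 27 of 31 (median 0.07), but their summed level was 15630, 15429 and 16005 CPM in ApoE4 libraries, against 16395, 14519 and 13916 CPM in WT libraries, so that the groups overlapped. ApoE4 replicate 3 was the highest of its group and WT replicate 3 the lowest of all 6. Without these libraries, an alternative added after seeing the data, the postsynaptic genes were above 0 in 19 of 31 (median 0.02), and with single libraries left out their median was 0.03 (without WT replicate 2) to 0.13 (without WT replicate 1). None of the markers of neurons (pan-neuronal, GABAergic, granule, CA3, CA1), of thalamus and striatum, of glia, endothelium and ependyma, or of the nuclear RNA list was called. The 20 pan-neuronal genes were above 0 in 13 in DM minus WT, 11 in APP-TKI minus WT, 10 in DM minus APP-TKI and 5 in ApoE4 minus WT, with medians of 0.03, 0.01, 0.00 and -0.04, and in 10 in ApoE4 minus WT without both replicate 3 libraries. Of 16 endothelial markers, 16 were above 0 in DM minus WT (median 0.43) and in DM minus APP-TKI (median 0.58), 11 and 12 of them at an unadjusted p under 0.05. Without DM replicate 3 the medians were 0.29 and 0.38. Their summed level was 172 to 211 CPM in DM libraries, 127 to 147 CPM in APP-TKI libraries and 129.8 to 150.3 CPM in WT libraries.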

How the data were processed

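Whole-number read counts per gene were deposited by the authors, who trimmed reads with Trimmomatic 0.39, aligned them with STAR 2.7.1a to the mouse genome (GENCODE) with human *APOE* added and counted with HTSeq 0.11.2, per the methods and the submitters' processing notes. They then used R 4.0.2 and edgeR. No source used here gives the strand setting of HTSeq. From the counts, symbols, positions and exon lengths were taken here from a neighbouring GENCODE release of GRCm38, and CPM and TPM were computed. The members and lists were chosen with earlier results of these data known.

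Genes over 1 CPM in 3 or more libraries were tested. Upper quartile scaling was used, and edgeR 4.0.16 (R 4.3.3, limma 3.58.1) fitted quasi-likelihood models, 1 for the 9 libraries of batch 1, 1 for the 6 of batch 2 and 1 for all 15. Fold changes are log2 values of the fit, and p-values were adjusted by Benjamini-Hochberg over all tested genes and called under 0.1. The 95% intervals use the residual degrees of freedom and are wider than the test's. The code was tested on simulated data with changes of 1.5-fold or more in independent libraries. That test does not cover smaller changes or libraries that deviate together. Per-library values are given for members called, for members with an unadjusted p under 0.05 and for the 3 highest and 3 lowest by level, and others that are named were chosen after their values were seen. DESeq2 1.42.0, other scalings, filters, fits and each library left out were alternatives. Libraries with the same number in DM and WT deviated together (correlations of 0.45, 0.19 and 0.30), which by the rule used here pairs them, although no label says what the number stands for. In the other comparisons they did not. Figures were drawn with matplotlib 3.10.9 in Python 3.11.15.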

Additional observations from a re-analysis of the deposited data

How the results depend on the processing

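Groups of 3 libraries and a bulk tissue limit what can be seen, and the intervals of single genes, not their p-values, bound the size of a change. Members called stayed at 0 under every alternative in APP-TKI minus WT and DM minus APP-TKI. In DM minus WT the count was 0 in every alternative but the replicate block with the DM and WT libraries alone, where it was 1 (*Cplx1*). The pairing of the other comparisons by a replicate block called 0 members, as did the planned block in DM minus WT. In ApoE4 minus WT the robust likelihood ratio test called 1 (*Rab3c*). In the difference of differences that test called 1 (*Rab3c*), at 121 of all genes. The quasi-likelihood fit without a filter on low counts called 3 (*Syt2*, *Sv2c* and *Rab3c*), at 393 of all genes with any count. With the filter it called 0 of all genes. Without each library in turn the count was 0 to 0 in all 5. The main fits called 2 of 16171 tested genes in DM minus WT, 1 in APP-TKI minus WT and 0 in the other comparisons. For most alternatives the share of all genes called is not given here. The counts of 0 members are therefore no result about the presynaptic genes in particular. Alternatives in ApoE4 minus WT that left out both replicate 3 libraries, added after seeing the data, turned *Syt2* to 0.048 and *Vamp1* to 0.020. Of the values of single genes over all alternatives, 5 newly passed the threshold, all under these tests or filters, and 324 kept their side of it and their direction.

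The median log2 fold change of the 39 genes without each library in turn was -0.007 to 0.058 in DM minus WT, -0.001 to 0.046 in APP-TKI minus WT, -0.036 to 0.037 in DM minus APP-TKI, -0.067 to 0.007 in ApoE4 minus WT and -0.014 to 0.084 in the difference of differences, lowest there without ApoE4 replicate 3. These ranges cover 0 in all 5. Over the single genes, *Sv2c* ran from 0.22 to 0.84, *Syt2* from -0.61 to -0.09, *Vamp1* from -0.49 to -0.09 and *Rab3c* from -0.46 to -0.21 in ApoE4 minus WT.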
